A study of Homo sapiens with 12 samples.

Results

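8 genes of cholesterol synthesis and its control were followed in ARID1A-knockout cells given different forms of ARID1A, with and without EWS-FLI1. The members are HMGCS1, IDI1, FDFT1, SQLE, LSS, DHCR7, INSIG1 and SREBF2, taken by gene name, 8 of the 60645 gene names counted in each library. All 8 passed the filter on low counts and were tested. PolyA RNA came from HEK-293T, a human embryonic kidney line grown with 10% serum, after knockout of its ARID1A gene. The line is named 12KO, and the labels do not say whether it is 1 clone. Every group carries the knockout. The cells received an empty vector (here "no ARID1A"), wild-type ARID1A (WT) or ARID1A lacking the segment IDR1b (ΔIDR1b). On top of each of these 3 ARID1A states they received either a further empty vector or EWS-FLI1, for which the protocol gives 2 µg of plasmid and 48 h of growth after transfection. The study states as its purpose the role of IDR1b in gene regulation by EWS-FLI1. This made 6 groups of 2 libraries. The labels do not say that the repeats were separate cultures, so p-values measure only the spread between these libraries, which may be technical.

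Cholesterol is made from acetyl-CoA through mevalonate, farnesyl diphosphate, squalene and lanosterol. The transcription factor SREBP2, the product of SREBF2, turns on the genes of this route when membranes run low in sterol. Its precursor is held in the endoplasmic reticulum by SCAP together with the INSIG proteins, and is carried to the Golgi and cleaved there when sterol falls. INSIG1 is itself an SREBP target, so that it closes a feedback loop. ARID1A is a subunit of the SWI/SNF chromatin remodelling complex, and EWS-FLI1 is the fusion transcription factor of Ewing sarcoma.

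The libraries held 11702251 to 14445379 counts in genes, and a member had 567 to 3942 counts in a library. Levels below are CPM, the counts of a gene divided by the library's size after TMM scaling (trimmed mean of M-values) and put on a common total; the TMM factors were 0.932 to 0.969 in the WT libraries and 1.05 to 1.08 in the ΔIDR1b libraries. ARID1A stood at 156 ± 12.1 CPM (mean ± SD, n = 2) without introduced ARID1A and with the empty vector, 2056 ± 25.8 in WT and 2787 ± 130 in ΔIDR1b. These counts add the resident and the introduced RNA, and since the edited part of the gene is not given, the level in the knockout does not test the knockout. With EWS-FLI1, FLI1 stood at 1759 ± 100 CPM with no ARID1A, 3568 ± 151 in WT and 1897 ± 13.2 in ΔIDR1b, against 0 to 2 counts in every library without it. The unequal levels of introduced ARID1A and EWS-FLI1 move with the ARID1A states, and their part in the results below was not tested. All 5 genes taken as markers of 293T cells (KRT8, KRT18, VIM, CDH2, PAX2) were present at 7.86 to 686 CPM. The 7 markers of leukocytes, endothelium, hepatocytes, muscle and melanocytes summed to 1.1 to 3.0 CPM a library. RNA was taken from whole cultures, so fewer cells of a kind and less RNA per cell cannot be told apart.

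The stretches before the start sites of 5 members are shown because 3 of these genes (HMGCS1, IDI1, INSIG1) fell in ΔIDR1b and 2 (LSS, SREBF2) were not called lower than with no ARID1A. The sequences are RefSeq windows on GRCh38.p14, read 5′ to 3′ on the strand of the gene, and only bases ahead of the annotated exons are printed. For SREBF2 that space begins in an exon of a neighbouring gene, so only 30 bases are given. Capitals mark the CCAAT box bound by NF-Y, which reads ATTGG where it lies on the opposite strand, and the sterol regulatory element bound by SREBP, searched as TCACNCCAC and as its shorter core CACNCCAC, which lies inside the longer form. Both strands were searched for exact matches, forms that differ from these strings were left unmarked, and binding was not measured.
INSIG1, chr7:155297628-155297775, plus strand: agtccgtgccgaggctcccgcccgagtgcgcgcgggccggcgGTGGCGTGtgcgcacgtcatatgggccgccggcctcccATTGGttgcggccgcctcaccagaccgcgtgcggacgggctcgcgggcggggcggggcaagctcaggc
IDI1, chr10:1049120-1049369, minus strand: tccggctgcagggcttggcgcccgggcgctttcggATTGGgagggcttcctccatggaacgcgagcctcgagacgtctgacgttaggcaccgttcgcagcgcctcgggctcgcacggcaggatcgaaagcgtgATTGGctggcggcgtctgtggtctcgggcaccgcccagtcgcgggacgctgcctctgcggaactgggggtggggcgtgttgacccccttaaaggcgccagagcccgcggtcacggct
HMGCS1, chr5:43313513-43313662, minus strand: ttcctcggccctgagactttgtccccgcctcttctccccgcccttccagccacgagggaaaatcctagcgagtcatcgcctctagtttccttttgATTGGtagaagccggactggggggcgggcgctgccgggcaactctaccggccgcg
LSS, chr21:46228825-46229024, minus strand: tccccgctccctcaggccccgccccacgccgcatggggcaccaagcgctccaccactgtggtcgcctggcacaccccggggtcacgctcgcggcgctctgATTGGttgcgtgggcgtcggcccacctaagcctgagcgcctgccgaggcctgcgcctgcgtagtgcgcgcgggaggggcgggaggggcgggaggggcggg
SREBF2, chr22:41832962-41832991, plus strand: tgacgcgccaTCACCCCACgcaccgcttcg

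Whole windows of 300 bases, from 250 before to 50 after the start, were available for 6 of the 8 members, not for SQLE and FDFT1. The longer element TCACNCCAC was found in SREBF2, as TCACCCCAC at position -133, where -1 is the base before the start. It was present in 1.13% of 35116 human windows. The core CACNCCAC, in 5.87% of windows, was found in INSIG1 at -208 on the minus strand, and in IDI1 at -115 in the window of another of its start sites. CCAAT was found in the windows of INSIG1, IDI1, HMGCS1, LSS and SREBF2, in the last at -106 and so outside the bases shown, and in 34.6% of all windows. For DHCR7 the window of the outer of its 2 starts held neither CCAAT nor the element, and a window of another start held CCAAT at -94 and -48. The GGAAGGAA repeat typical of EWS-FLI1 binding, present in 3.67% of windows, was in none of the 10 windows of the members.

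In ΔIDR1b, 5 of the 8 genes were called lower. Of all tested genes, 16.8% were called lower and 16.4% higher than with no ARID1A with the empty vector. Against WT these shares were 13.4% and 11.1%. With the empty vector, INSIG1, IDI1, SQLE, FDFT1 and HMGCS1 were lower in ΔIDR1b than without ARID1A and than in WT, by 1.42-fold to 2.36-fold against no ARID1A. LSS, DHCR7 and SREBF2 were not lower by the test in these comparisons. However, DHCR7 against WT lay close to the threshold and was called lower under 7 of 21 alternative fits. That split depends on the processing: with trends in GC content and length removed, and with the empty vector, DHCR7 was called lower than in both other states, and SREBF2 lower than in WT. EWS-FLI1 changed none of the 8 by the test in any ARID1A state, where 0.0442% to 0.221% of all tested genes were called. In WT against no ARID1A, SREBF2 rose, as it did in ΔIDR1b with EWS-FLI1, and 1 or 2 other members passed the test, depending on the vector.

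The plot of levels by group gives each gene its own scale.

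**Figure D1:**
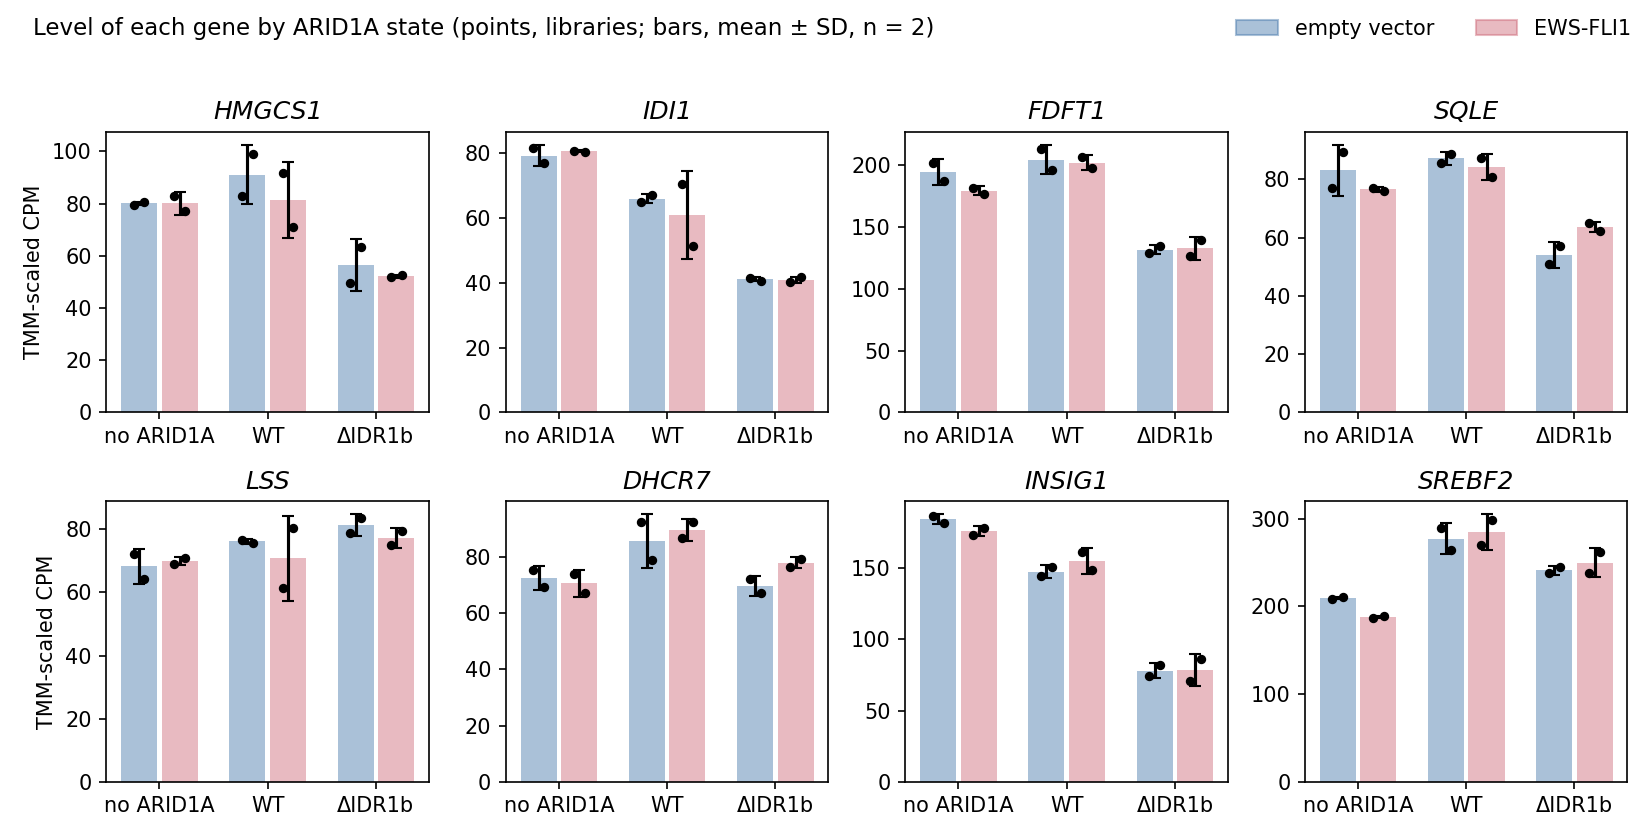
TMM-scaled CPM of the 8 genes (vertical axes, linear from 0) in the 3 ARID1A states with the empty vector (blue) and EWS-FLI1 (red); points are libraries, bars the mean and lines the SD of 2 libraries. For INSIG1, IDI1, FDFT1, SQLE and HMGCS1 both ΔIDR1b bars are the lowest of their panel, while the SREBF2 bars are highest in WT.

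Between genes, levels were compared per kilobase of exon. The length includes bases shared with other genes, where fragments were not counted. Shared bases made up 37.7% of HMGCS1, 15% of IDI1 and at most 7.88% (LSS) of any other member. The levels of HMGCS1 and IDI1 may therefore be too low, and their places in the order below are uncertain. Averaged over all 12 libraries, INSIG1 stood at 37.4 CPM per kilobase, FDFT1 at 33.5 and SREBF2 at 32.0, followed by SQLE at 17.4, IDI1 at 14.3, DHCR7 at 11.3, HMGCS1 at 11.1 and LSS at 10.2. The only neighbours in this order whose libraries did not overlap were SREBF2 and SQLE. With no ARID1A and the empty vector INSIG1 led with 50.4 ± 0.957 CPM per kilobase, above FDFT1 at 37.4 ± 1.97 (SD, n = 2). In ΔIDR1b with the empty vector INSIG1 fell to 21.4 ± 1.45 CPM per kilobase, below SREBF2 at 31.9 ± 0.664 and FDFT1 at 25.3 ± 0.750.

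Of the steps from acetyl-CoA to squalene, HMGCS1 makes the HMG-CoA that is reduced to mevalonate. With the empty vector its libraries stood at 79.6 and 80.5 CPM with no ARID1A, 83.0 and 99.1 in WT, and 49.6 and 63.5 in ΔIDR1b. With EWS-FLI1 they stood at 83.1 and 77.0 CPM with no ARID1A, 91.8 and 71.0 in WT, and 51.7 and 52.5 in ΔIDR1b. All 4 ΔIDR1b libraries lay below the other 8. The log2 fold change of ΔIDR1b against no ARID1A was -0.50 ± 0.13 with the empty vector (± its standard error, SE; edgeR quasi-likelihood test, adjusted p = 0.00289) and -0.62 ± 0.13 with EWS-FLI1 (adjusted p = 0.00033). The call with the empty vector rested on 1 library: without ΔIDR1b repeat 1 the change was -0.33 and the adjusted p 0.131. Of the exonic bases of HMGCS1, 37.7% are shared with ENSG00000261604, and fragments there were counted for neither gene; that gene had 0 counts in every library.

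IDI1 interconverts the isoprene units isopentenyl and dimethylallyl diphosphate. With the empty vector it stood at 81.4 and 76.7 CPM with no ARID1A, 64.8 and 66.9 in WT, and 41.5 and 40.5 in ΔIDR1b. With EWS-FLI1 the values were 80.6 and 80.2 CPM with no ARID1A, 70.3 and 51.2 in WT, and 40.1 and 41.6 in ΔIDR1b. The 3 states did not overlap with either vector, and WT lay between the other two. The level in ΔIDR1b was 1.93-fold lower than with no ARID1A with the empty vector (log2 fold change -0.95 ± 0.13, adjusted p = 4.36e-07) and 1.97-fold lower with EWS-FLI1 (-0.98 ± 0.13, adjusted p = 2.24e-07). Against WT the changes were -0.68 ± 0.13 and -0.57 ± 0.13 (adjusted p = 0.000148 and 0.0016). The latter call was lost without repeat 1 of WT with EWS-FLI1, with a change of -0.33 and an adjusted p of 0.0763. Exons of IDI2-AS1, with 23 to 106 counts a library, share 15% of the exonic bases of IDI1.

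FDFT1, squalene synthase, joins farnesyl diphosphate units into squalene. With the empty vector its libraries stood at 202 and 187 CPM with no ARID1A, 213 and 196 in WT, and 129 and 134 in ΔIDR1b. With EWS-FLI1 they stood at 182 and 177 CPM with no ARID1A, 206 and 198 in WT, and 126 and 139 in ΔIDR1b. The ΔIDR1b libraries were again the lowest 4 of the 12. The fall against no ARID1A came to -0.56 ± 0.10 with the empty vector and -0.43 ± 0.10 under EWS-FLI1 on the log2 scale (adjusted p = 3.67e-05 and 0.000863). Against WT it came to -0.64 ± 0.10 and -0.61 ± 0.10 (adjusted p = 1.54e-05 and 5.07e-05).

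From squalene to sterol, SQLE oxidises squalene, a rate-limiting step of the later pathway. Its libraries with the empty vector stood at 76.9 and 89.2 CPM with no ARID1A, 85.5 and 88.8 in WT, and 51.0 and 57.3 in ΔIDR1b. With EWS-FLI1 they stood at 77.1 and 76.0 CPM with no ARID1A, 87.4 and 81.0 in WT, and 64.9 and 62.4 in ΔIDR1b. SQLE was thus below the other states in ΔIDR1b with both vectors, by a wider gap with the empty vector. The log2 fold change against no ARID1A was -0.62 ± 0.11 with the empty vector (adjusted p = 6.99e-05). With EWS-FLI1 it was -0.27 ± 0.11, which did not pass the test (adjusted p = 0.0663) but did with the repeat numbers as a block within each vector (-0.27, adjusted p = 0.0284). It also passed with GC and length trends removed, and in all under 7 of 21 alternatives. These included upper-quartile factors, a mean of at least 50 counts and a fit of only the 4 compared libraries (adjusted p = 0.0499, 0.0353 and 0.0201). The difference between these 2 changes, 0.35 ± 0.16, was not called (unadjusted p = 0.0364, adjusted p = 1.00). Against WT the fall was -0.69 ± 0.11 with the empty vector (adjusted p = 3.45e-05) and -0.40 ± 0.11 with EWS-FLI1 (adjusted p = 0.0111). The latter was lost without either ΔIDR1b library with EWS-FLI1 (adjusted p = 0.0536 without repeat 1 and 0.0802 without repeat 2), and when only the 4 compared libraries were fitted (0.0889).

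LSS closes the ring to lanosterol, and DHCR7 catalyses the last reduction to cholesterol. LSS ranged from 61.3 to 83.6 CPM over the 12 libraries. Its group means ran from 68.2 ± 5.51 CPM with no ARID1A to 81.2 ± 3.47 in ΔIDR1b, both with the empty vector (SD, n = 2). It was the only member with a higher estimate in ΔIDR1b than in both other states with either vector, and no such difference was called; with GC and length trends removed the estimates against WT with the empty vector and against no ARID1A with EWS-FLI1 turned to -0.088 and -0.014. Against no ARID1A with the empty vector the change was 0.25 ± 0.12 (adjusted p = 0.105, and 0.0419 when blocked on the repeat number of each vector). This rise of LSS was called under 4 of 21 alternatives, among them a fit of only the compared libraries. DHCR7 ranged from 67.2 to 92.3 CPM, with its highest group mean in WT with EWS-FLI1, 89.5 ± 3.97 CPM. For ΔIDR1b against no ARID1A its change was -0.05 ± 0.11 with the empty vector and 0.14 ± 0.11 under EWS-FLI1 (adjusted p = 0.761 and 0.358). With GC and length trends removed, the change with the empty vector was -0.24 and was called (adjusted p = 0.0316). Against WT with the empty vector its change was -0.30 ± 0.11 (adjusted p = 0.0525, and 0.0175 when blocked on the repeat number of each vector). That difference was called under 7 of 21 alternatives, among them DESeq2 and a fit of only the compared libraries. With GC and length trends removed DHCR7 was called lower than in WT with both vectors (-0.47 and -0.33, adjusted p = 5.59e-05 and 0.00362).

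Of the genes that control SREBP, INSIG1, which retains the SCAP complex in the endoplasmic reticulum, changed most. With the empty vector its libraries stood at 186 and 181 CPM with no ARID1A, 144 and 151 in WT, and 74.2 and 81.7 in ΔIDR1b. With EWS-FLI1 they stood at 173 and 178 CPM with no ARID1A, 161 and 148 in WT, and 70.6 and 86.3 in ΔIDR1b. The 3 states were ordered no ARID1A, WT, ΔIDR1b with no overlap under either vector. In ΔIDR1b, INSIG1 was 2.36-fold lower than with no ARID1A with the empty vector (log2 fold change -1.24 ± 0.11, adjusted p = 7.47e-11) and 2.24-fold lower with EWS-FLI1 (-1.16 ± 0.11, adjusted p = 2.85e-10). Against WT it was 1.89-fold lower with the empty vector and 1.97-fold lower with EWS-FLI1 (adjusted p = 1.53e-07 and 6.69e-08).

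SREBF2 itself did not follow INSIG1. Its libraries with the empty vector stood at 209 and 210.4 CPM with no ARID1A, 289 and 265 in WT, and 238 and 245 in ΔIDR1b. With EWS-FLI1 they stood at 187 and 189 CPM with no ARID1A, 270.4 and 299 in WT, and 239 and 261 in ΔIDR1b. Both forms of ARID1A lay above no ARID1A in every library. The rise in WT was 0.40 ± 0.10 with the empty vector (adjusted p = 0.00515) and 0.60 ± 0.10 with EWS-FLI1 (adjusted p = 3.48e-05). In ΔIDR1b it was 0.41 ± 0.10 with EWS-FLI1 (adjusted p = 0.00113), and 0.20 ± 0.10 with the empty vector, which did not pass the test (adjusted p = 0.104). The latter was called under 3 of 21 alternatives, among them a fit of only the compared libraries. The difference of ΔIDR1b from WT did not pass the test (-0.20 ± 0.10 and -0.19 ± 0.10, adjusted p = 0.131 and 0.177). With GC and length trends removed SREBF2 was called lower in ΔIDR1b than in WT with both vectors (-0.38 and -0.32, adjusted p = 4.27e-05 and 0.000573). These are levels of mRNA; cleavage of the SREBP2 protein was not measured.

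Counted together, ΔIDR1b against no ARID1A called 5 of 8 members lower and 0 higher with the empty vector, where 16.8% of the 20377 tested genes were called lower and 16.4% higher. The median log2 change was -0.53 over the 8 members and 0.0040 over all tested genes. With EWS-FLI1, in libraries not shared with that comparison, 4 members were lower (HMGCS1, IDI1, FDFT1, INSIG1) and SREBF2 was higher, beside 17.9% of all genes lower and 18.1% higher, with medians of -0.35 and 0.016. Against WT, the same 5 members were called lower with each vector and 0 higher. Of all genes 13.4% were lower and 11.1% higher with the empty vector, and 10.1% and 8.48% under EWS-FLI1. The share of these calls that were higher, 45.4% and 45.6%, became 56.1% and 53.4% with upper-quartile factors and 35.9% and 34.3% with GC and length trends removed. The medians of the members were -0.66 and -0.49 there, beside 0.012 and 0.0092 over all genes. The comparisons of ΔIDR1b with no ARID1A and with WT share the ΔIDR1b libraries, so they are not independent of each other. The members were chosen with earlier results of these data known, so setting them beside all genes is not an independent test. With trends of each library in GC content and exonic length removed, SREBF2 changed by 0.014 in ΔIDR1b against no ARID1A with the empty vector. With EWS-FLI1 that change was 0.25 and still called.

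**Figure D2:**
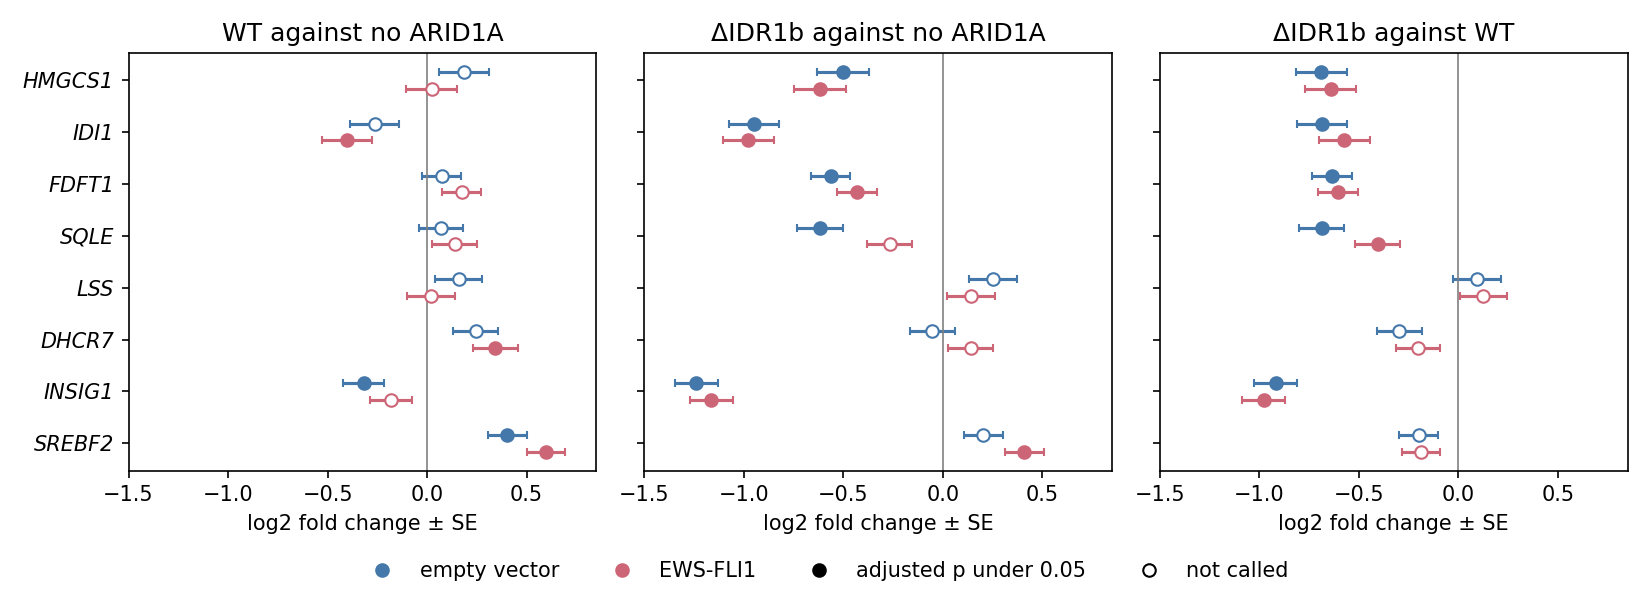
Log2 fold change ± SE (horizontal axes) of the 8 genes between ARID1A states, with the empty vector (blue) and EWS-FLI1 (red); filled points passed an adjusted p of 0.05. In the 2 panels of ΔIDR1b, HMGCS1, IDI1, FDFT1, SQLE and INSIG1 lie to the left of 0 with both vectors, from -0.27 for SQLE to -1.24 for INSIG1. DHCR7 and SREBF2 also lie to the left against WT, unfilled, and SREBF2 lies to the right in the panel of WT.

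WT ARID1A against no ARID1A called 2 members with the empty vector: SREBF2 was higher and INSIG1 lower (-0.32 ± 0.11, adjusted p = 0.043). Of all genes 6.50% were called higher and 5.19% lower, and 3606 genes passed in place of 2381 when repeats were blocked within a vector. The INSIG1 call was lost when any of 8 libraries was left out, including each of the 4 compared (adjusted p from 0.0611 to 0.259), and without a filter on low counts (0.0695). The SREBF2 call was lost without either library of no ARID1A or without repeat 1 of WT (adjusted p = 0.0636, 0.0654 and 0.102). With EWS-FLI1, SREBF2 and DHCR7 were higher and IDI1 lower, 3 of 8 members, beside 9.72% of all genes higher and 8.36% lower. DHCR7 rose by 0.34 ± 0.11 (adjusted p = 0.0326) and IDI1 changed by -0.40 ± 0.12 (adjusted p = 0.021). Both calls were lost without either EWS-FLI1 library of no ARID1A, without repeat 2 of WT, and when only the 4 libraries were fitted. DHCR7 also lost its call with upper-quartile factors and with a mean of at least 50 counts (adjusted p = 0.0777 and 0.0524). IDI1 ran from -0.65 to -0.19 when 1 library was left out, the latter without repeat 2 of WT. With GC and length trends removed, IDI1 was also called lower in WT with the empty vector (adjusted p = 0.00925). The same alternative called INSIG1 lower in WT with EWS-FLI1 (adjusted p = 0.028). The median of the members was 0.12 with the empty vector and 0.081 under EWS-FLI1, beside -0.0075 and -0.015 over all genes. The 2 WT libraries with EWS-FLI1 differed from each other more than any other pair over all genes, and IDI1, HMGCS1 and LSS differed between them by -0.46, -0.37 and 0.39 on the log2 scale (repeat 2 against repeat 1).

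EWS-FLI1 against the empty vector called 0 of 8 members with no ARID1A, in WT, in ΔIDR1b and averaged over the 3 states. Of all genes 0.0442%, 0.221%, 0.172% and 0.466% were called, so that few genes passed in any of these comparisons; blocking on the repeats within a vector gave counts of 17, 119, 109 and 232 in place of 9, 45, 35 and 95, which again held no member. No member had an unadjusted p under 0.05 in any of the 4 comparisons, and DESeq2 also called 0 members. The estimates ran from -0.16 for SREBF2 to 0.035 for LSS with no ARID1A, from -0.16 for HMGCS1 to 0.070 for INSIG1 in WT, and from -0.12 for HMGCS1 to 0.23 for SQLE in ΔIDR1b, with SEs of 0.096 to 0.13. SQLE in ΔIDR1b, at 0.23 ± 0.11 (unadjusted p = 0.0503, adjusted p = 0.909), had the lowest unadjusted p of the members in these comparisons. Averaged over the 3 states the members lay between -0.093 and 0.064, with a median of -0.027 beside -0.0020 over all genes.

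**Figure D3:**
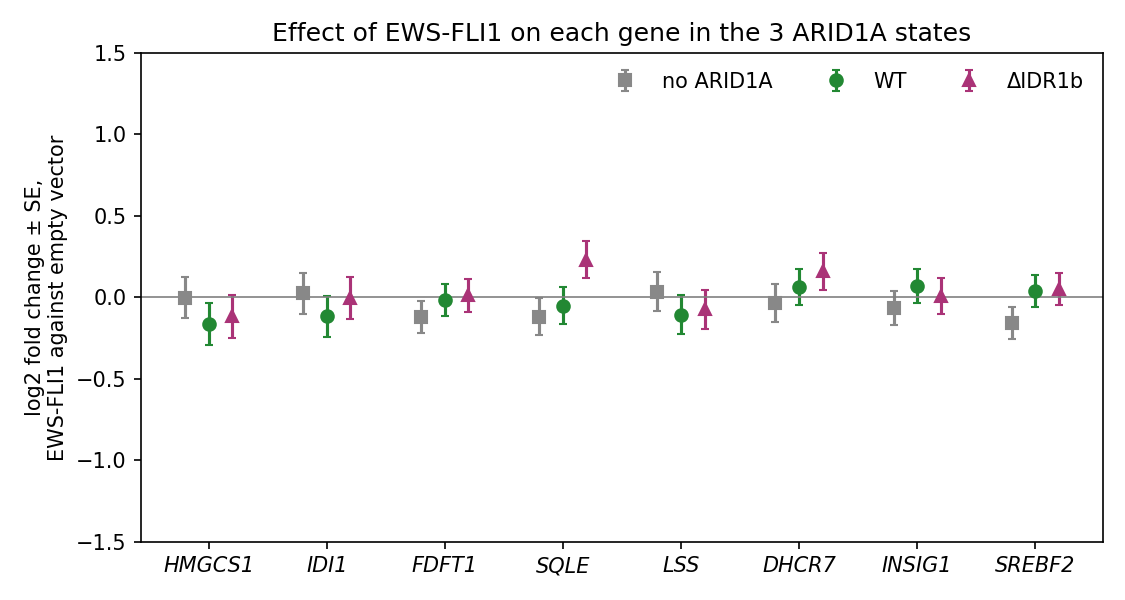
Log2 fold change ± SE of EWS-FLI1 against the empty vector (vertical axis) for the 8 genes with no ARID1A (grey squares), WT (green circles) and ΔIDR1b (purple triangles). All 24 estimates lie between -0.16 and 0.23, and none passed the test.

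The effect of EWS-FLI1 was also compared between the states. None of the 8 members was called in these interactions, in which 0.0245% (WT minus no ARID1A), 0.0196% (ΔIDR1b minus no ARID1A) and 0% (ΔIDR1b minus WT) of all genes were called. Blocking on the repeats within a vector gave 16 and 10 calls in place of 5 and 0 for the interactions of WT with no ARID1A and of ΔIDR1b with WT, again with no member. The estimates of the members ran from -0.16 (HMGCS1) to 0.35 (SQLE), with SEs of 0.14 to 0.18. SQLE was the only member with an unadjusted p under 0.05 in any of the 3.

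The rest of the pathway was read from fixed lists in ΔIDR1b against no ARID1A. In this comparison 16.8% of all tested genes fell and 16.4% rose with the empty vector, and 17.9% fell and 18.1% rose with EWS-FLI1; the counts of each list stand beside these shares, and nothing is read from them about a list as a whole. Of 15 other genes of sterol synthesis, 4 fell and 1 rose with the empty vector (median -0.23), and 4 fell and 2 rose with EWS-FLI1 (median -0.15). MSMO1, a methyl sterol oxidase of the steps after lanosterol, fell from 83.6 ± 5.99 to 31.5 ± 1.80 CPM with the empty vector (-1.41 ± 0.16, adjusted p = 1.31e-08) and from 78.1 ± 1.68 to 28.8 ± 1.31 CPM with EWS-FLI1 (-1.44 ± 0.16). This was a larger estimate than that of any member. MVD, which makes isopentenyl diphosphate for IDI1, fell by 0.60 and by 0.51 on the log2 scale, and FAXDC2 by 0.64 and by 0.78. NSDHL, a dehydrogenase of the same late steps as MSMO1, rose by 0.47 and 0.89. With the empty vector FAXDC2 lost its call without ΔIDR1b repeat 2 (adjusted p = 0.122), and NSDHL in 7 of 21 alternatives (highest adjusted p 0.494), which were DESeq2, no filter on low counts, and 5 fits that left out 1 library.

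Among 8 genes of SREBP processing and sterol sensing, INSIG2, which acts beside INSIG1, fell by 0.89 with the empty vector and by 0.94 with EWS-FLI1, from 87.1 ± 13.2 to 47.0 ± 0.278 CPM with the empty vector. MBTPS1, the site-1 protease that cleaves SREBP, rose by 0.42 and 0.44. These were the only calls in that list with the empty vector (median 0.041), and RNF145 also rose with EWS-FLI1 (0.33 ± 0.11, adjusted p = 0.0221, lost under 5 of 21 alternatives), which left 2 higher and 1 lower (median 0.14). SREBF1, the gene of SREBP1, was not called against no ARID1A. Of 12 other SREBP targets and sterol transport genes, 2 fell and 1 rose with the empty vector, and 3 fell and 2 rose with EWS-FLI1 (medians -0.018 and 0.095). STARD4, a carrier of cholesterol between membranes, fell by 1.26 and by 1.13 on the log2 scale, from 72.4 ± 5.10 to 30.2 ± 1.57 CPM with the empty vector. OSBP, an exchanger of cholesterol for a phosphoinositide, rose by 0.39 and 0.50; its call with the empty vector was lost without repeat 1 of no ARID1A or repeat 2 of ΔIDR1b (highest adjusted p 0.0567).

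Of 11 genes of fatty acid synthesis, the branch associated with SREBP1, 1 fell and 2 rose with the empty vector, and 1 fell and 4 rose with EWS-FLI1 (medians 0.087 and 0.0094). SCD, the Δ9 desaturase, fell by 0.83 and by 0.73 on the log2 scale, from 946 ± 24.3 to 530.3 ± 13.1 CPM with the empty vector. FASN, fatty acid synthase, rose by 0.52 and 0.69, from 872 ± 3.05 to 1247 ± 45.1 CPM with the empty vector. Of 9 LXR targets and efflux genes, 2 fell and 3 rose, then 2 and 2 (medians 0.082 and -0.073). MYLIP, the ubiquitin ligase that removes lipoprotein receptors, fell by 0.85 and by 0.98, and NR1H2, which encodes LXRβ, rose by 0.92 and 0.73. Of 12 genes of the nonsterol branches of the mevalonate pathway, 1 fell and 4 rose, then 1 and 6 (medians 0.14 and 0.23). DOLK, dolichol kinase, rose most, from 2.98 ± 0.434 to 12.3 ± 0.910 CPM with the empty vector (2.04 ± 0.27, adjusted p = 2.7e-07) and by 1.72 with EWS-FLI1. RABGGTB, a subunit of Rab geranylgeranyl transferase, fell by 0.53 and by 0.54 (log2). EWS-FLI1 against the empty vector called 0 genes in these 6 lists in any state.

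Across the 12 libraries, which share the 6 groups, the log2 levels of HMGCS1, IDI1, FDFT1, SQLE and INSIG1 were correlated with each other with r from 0.778 to 0.954 in their 10 pairs. LSS ran against these 5 (r from -0.712 to -0.498), DHCR7 had r from -0.0187 to 0.490 with them and SREBF2 from -0.472 to 0.0963, while DHCR7 and SREBF2 had an r of 0.783 with each other. These values describe the same differences between groups as the tests above. The genes whose pattern was most like the mean pattern of the 8 members, of 15127 compared over 12 libraries, were GFOD2 (r = 0.984), NONO (0.977), HLA-E (0.973), PDIA6 (0.970), FAH (0.969), ATP5F1B (0.967), NOB1 (0.965) and TERF2IP (0.961). None of them is in the pathway lists. Taken gene by gene, SCD was among the 3 genes most alike to INSIG1 (r = 0.986), and OSER1 was the most alike (0.990). The gene most alike to IDI1 was HNRNPDL (0.995), that to FDFT1 VDAC2 (0.989), to HMGCS1 MEAF6 (0.977) and to SQLE PRKAB2 (0.965). For SREBF2 it was DHX16 (0.976), for DHCR7 SPC24 (0.956) and for LSS ADGRB1 (0.923).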

How the data were processed

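Per the file headers, the authors ran featureCounts 2.0.1 over GENCODE 41 exons (GRCh38, patch 13) to count fragments per gene name. Read pairs needed both ends aligned, strand was not used, and fragments that mapped to or overlapped several genes were left out. The deposited values are raw counts. STAR, SAMtools and edgeR are named in the submitters' processing notes without versions.

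Of 60645 gene names, 20377 passed filterByExpr (minimum count 10, minimum total 15). Counts were scaled by TMM and fitted with edgeR 4.0.16 (limma 3.58.1, R 4.3.3), with 1 mean per group over all 12 libraries. Each of 13 contrasts was tested with the 2-sided quasi-likelihood F-test. A call is a p under 0.05 after Benjamini-Hochberg adjustment over all tested genes. The SE is the size of the log2 fold change divided by the square root of F. The procedure was tested on simulated data.

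The members and the gene lists, written from general knowledge, were chosen with earlier results of these data known. The text names all members, at most 4 called genes of a list in a comparison, and the genes most alike by Pearson r.

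The labels number repeats 1 and 2 without saying what a number shares. The difference between repeats was compared between groups over 10695 genes: r was 0.104 to 0.412 between groups with the same vector and -0.223 to -0.00785 between vectors. From these values, the repeat numbers may pair libraries within a vector, which the labels do not state. The main fit has no block, and a block on the repeat number within each vector is an alternative. Other alternatives were other scalings and filters, DESeq2 1.42.0, fits on only the compared libraries, leaving out each library, and, chosen after the data were seen, removal of GC and length trends. Promoter windows are from RefSeq (GRCh38.p14).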

Additional observations from a re-analysis of the deposited data

How the results depend on the processing

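Of the 25 called effects of the members, 18 kept direction and call under every alternative run (20 or 21 per comparison), 7 lost the call under at least 1, and 0 reversed. Of 79 effects not called, 11 were called under at least 1 alternative. The 5 falls in ΔIDR1b with the empty vector kept their direction throughout. The number of members called in WT against no ARID1A went from 2 to 1 with the empty vector without a filter on low counts, and from 3 to 1 with EWS-FLI1 when only the 4 compared libraries were fitted. Leaving out 1 library gave 0 to 2 and 1 to 3 members there. That setting leaves a group with 1 library, which is assumed to vary like the others.

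The repeat numbers as a block within each vector gave 6 members called, in place of 5, in ΔIDR1b against no ARID1A with each vector and against WT with the empty vector, and changed no other call of a member. Counts over all genes with that block are not given for these comparisons of ΔIDR1b. Nothing is read from the added calls about the members. Over all genes the block called 17, 119, 109 and 232 for EWS-FLI1 (no ARID1A, WT, ΔIDR1b, average), 3606 for WT against no ARID1A with the empty vector, and 16 and 10 for the interactions of WT with no ARID1A and of ΔIDR1b with WT.

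Directions that reversed were all of effects not called, and the cause was not tested. In the comparison of WT with no ARID1A under EWS-FLI1, HMGCS1 went from 0.023 to -0.033 (upper-quartile factors), -0.028 (mean of at least 50 counts) and -0.051 (GC and length trends removed), and LSS from 0.017 to -0.038, -0.035 and -0.015. With GC and length trends removed, LSS became -0.088 in ΔIDR1b against WT with the empty vector and -0.014 against no ARID1A with EWS-FLI1, where DHCR7 became -0.012. When 1 library was left out, HMGCS1 and LSS in WT against no ARID1A with EWS-FLI1 ran from -0.17 to 0.20 and from -0.19 to 0.20, LSS in ΔIDR1b against WT with EWS-FLI1 from -0.059 to 0.33, SQLE in WT against no ARID1A with the empty vector from -0.031 to 0.18, and DHCR7 in ΔIDR1b against no ARID1A with the empty vector from -0.11 to 0.0081.

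Counts over all genes also moved by more than 1.5 times. For EWS-FLI1 with no ARID1A, in WT, in ΔIDR1b and on average they were 15, 114, 90 and 242 with GC and length trends removed (16157 genes). They were 16, 26 and 56 in the 3 states with only the compared libraries, and 16 and 75 in the former 2 without a filter. WT against no ARID1A with the empty vector gave 3576 genes with those trends removed. With only the compared libraries, 2202 (WT against no ARID1A) and 1622 (ΔIDR1b against WT) were called with EWS-FLI1. Without a filter, 6 genes were called in the interaction of ΔIDR1b with WT. Without 1 library the counts ran from 5 to 15, 24 to 230, 23 to 74 and 65 to 316 for EWS-FLI1. For WT against no ARID1A they ran from 802 to 3550 with the empty vector and from 1828 to 3795 under EWS-FLI1, for ΔIDR1b against no ARID1A with the empty vector from 4484 to 7781, for ΔIDR1b against WT from 2754 to 6138 and from 1886 to 4383, and for the interactions of WT with no ARID1A and of ΔIDR1b with WT from 5 to 48 and from 0 to 26. The share called higher in WT against no ARID1A was 39.4% with upper-quartile factors with the empty vector and 42.2% under EWS-FLI1, against 55.6% and 53.8%. The average over states was not fitted with only the compared libraries, since it uses all 12.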
